A study of Mus musculus with 6 samples.

Results

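Endothelial cells line the pharyngeal arch arteries, and 40 genes known from these cells were followed through a comparison of *Pax9*-null with wild-type mouse embryos. They comprise the vascular growth factor receptors, junction and surface proteins, signalling molecules and transcription factors by which endothelium is recognised, together with arterial, venous and lymphatic genes. The genes were chosen by symbol, and 39 of the 40 had a row among the 14647 genes of the deposited table. The expression of *Stab2* was not analysed here. Of the 39, 38 passed a filter of a mean of at least 0.5 RPKM (reads scaled to gene length and library depth) over all libraries, as did 13547 genes in all, and *Lyve1* fell under it.

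RNA was measured in the pharyngeal arch region at E9.5, in 3 *Pax9*-/- and 3 wild-type embryos that are numbered within each genotype. The null allele is carried in every cell of the embryo, and the methods name a C57Bl/6J background for the colony. The dissected piece reached from the boundary between the first and second arches to the base of the heart, so that each library holds endoderm, ectoderm, neural crest, mesoderm, blood and vessels together. Genes of heart and neural tube were read in the libraries as well, in amounts given below. The sample labels instead name sorted cells and another library protocol, and the study's methods were followed here.

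Endothelial cells of the arches arise from mesoderm, join into a plexus and then into paired arteries that link the aortic sac with the dorsal aortae. VEGFA acts on them through the receptor kinases KDR and FLT1, VEGFC through FLT4, the angiopoietins through TEK with TIE1 beside it, and BMP9 and BMP10 through ALK1, the product of *Acvrl1*, with its co-receptor endoglin. Transcription factors of the ETS family (ERG, FLI1) and the SoxF family (SOX7, SOX17, SOX18) bind at many endothelial enhancers, and Notch signalling separates arteries from veins.

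*Pax9* itself was lower in the mutants. Its log2 RPKM was −0.43, −0.63 and −0.59 in *Pax9*-null replicates 1 to 3 and 0.63, 0.71 and 0.96 in the wild-type replicates, a log2 fold change of −1.32 ± 0.19 (SE; adjusted *P*=0.0155, limma). Between 11675753 and 12704813 reads per library fell on the listed genes. Wild-type replicate 3 stood apart in its tissue content: 9 cardiomyocyte genes summed to 39.3 RPKM there and to between 749 and 926 RPKM in the other 5 libraries, with *Nppa* at 0 reads, and the smooth muscle and pericyte genes summed to 84.3 RPKM against 238 to 326. Wild-type replicate 1 had the lowest sum of neural tube genes, at 26.97 RPKM against 43.5 to 64.8 RPKM in the other 5 libraries. The 13 erythroid genes summed to 5060, 2711 and 4613 RPKM in the *Pax9*-null replicates and to between 2463 and 2571 in the wild-type ones. All 13 had fold changes above 0, 3 were called higher at an adjusted *P* of at most 0.1, and 7 were higher at an unadjusted *P* under 0.05 (limma). Of all genes tested, 14.7% were called higher and 18.7% were higher at that unadjusted *P*. The leukocyte and megakaryocyte genes summed to at most 8.85 RPKM in any library. Epithelial genes summed to between 209 and 275 RPKM in *Pax9*-null and between 185 and 246 RPKM in wild-type libraries. Genes of the endocardium and heart cushions summed to 121.5, 127.5 and 93.15 RPKM in the *Pax9*-null replicates. In the wild-type replicates they summed to 95.81, 108.1 and 67.44 RPKM. What part these differences in content play in the results below was not tested.

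Endothelial markers were present in every library. *Fli1* had the highest level per length (mean of 28.9 RPKM over the 6 libraries), followed by *Aplnr* (22.4), *Cd34* (15.7), *Plvap* (15.5) and *Tek* (14.1). *Fli1*, *Aplnr* and *Cd34* are also transcribed in blood or mesenchymal cells, so that their levels do not measure endothelium alone. *Cdh5* and *Kdr* averaged 11.6 and 11.03 RPKM and *Pecam1* 7.38 RPKM. In all, 10 genes averaged at least 10 RPKM, 27 between 1 and 10 RPKM, and 2, *Tal2* (0.50) and *Lyve1* (0.34), under 1 RPKM. Apart from *Mmrn1*, the tested genes had between 8 and 2083 reads in a library.

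Of the 38 tested endothelial genes, 8 were lower and 1 was higher in the mutants, with adjusted *P* values of at most 0.1. The lower genes were the receptors *Flt4*, *Tie1*, *Acvrl1* and *Eng*, the junction cadherin *Cdh5*, the matrix protein *Mmrn2*, the GTPase regulator *Rasip1* and the gap junction gene *Gja4*, with log2 fold changes between −0.80 and −0.46. The higher gene was *Sox17*. Among all 13547 genes tested, 12.0% were called lower and 14.7% higher, so that the 21.1% of the endothelial genes called lower stood above this background and the 2.63% called higher below it. The fold change was below 0 for 26 of the 38, with a median of −0.14 on the log2 scale (−0.15 without *Mmrn1*) against −0.001 over all genes, 50.2% of which were below 0. All 3 *Pax9*-null libraries lay below all 3 wild-type libraries for 8 of the 38, a share close to the 20.1% of all genes that did so, and above them for 2, where 21.8% of all genes did. At an unadjusted *P* under 0.05 there were 11 lower (28.9%) and 2 higher (5.26%, *Sox17* and *Mmrn1*), where 16.4% and 18.7% of all genes stood. In bulk tissue, fewer endothelial cells and less RNA of a gene per cell cannot be told apart.

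**Figure D1:**
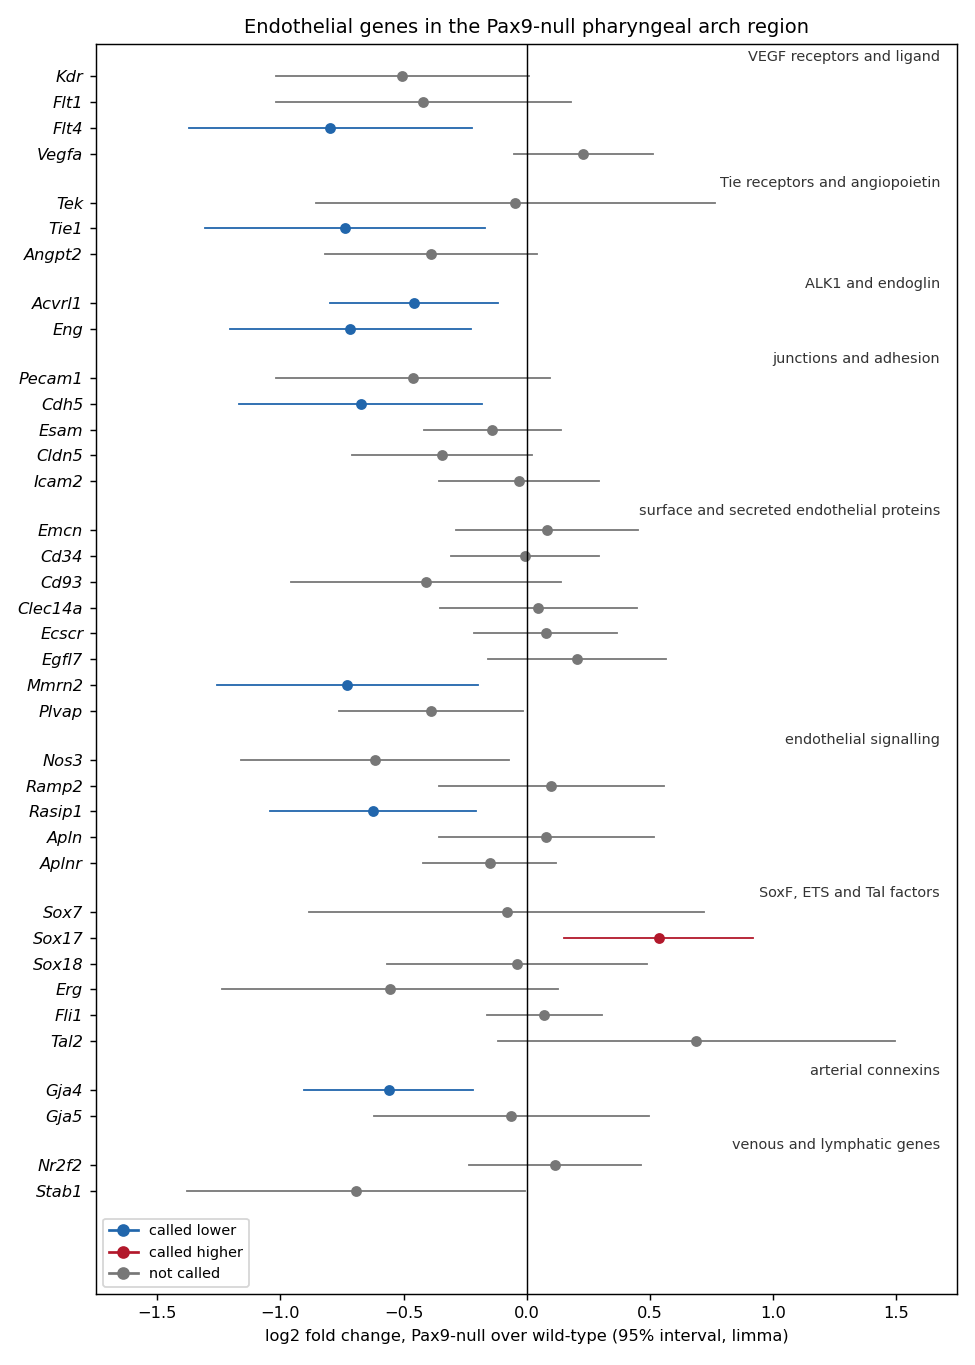
Log2 fold change of *Pax9*-null over wild-type embryos for 37 endothelial genes, grouped by role; points are limma estimates from 3 libraries a genotype and lines their 95% intervals, and *Mmrn1* is left out because 2 libraries had no reads. The 8 called lower lie between −0.80 and −0.46, *Sox17* lies at 0.54, and most grey intervals cross 0.

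Of the 4 genes for VEGF receptors and VEGFA, *Flt4* was lower. *Flt4* (chr11:49609263-49652739, GRCm38), which encodes the receptor for VEGFC, had log2 RPKM values of 0.17, 0.73 and 0.45 in *Pax9*-null replicates 1, 2 and 3 and of 1.70, 1.02 and 1.02 in the wild-type replicates. The groups did not overlap, and wild-type replicate 1 was the highest by a wide margin. The log2 fold change was −0.80 ± 0.25 (SE; adjusted *P*=0.0715), which puts the mutants at 57.5% of the wild-type level. *Kdr*, the main signalling receptor for VEGFA, had values of 3.01, 3.39 and 3.07 against 4.18, 3.39 and 3.41. *Pax9*-null replicate 2 and wild-type replicate 2 were almost level at 1086 and 1169 reads, and the groups separated only by this narrow gap. *Kdr* did not pass the threshold (−0.51 ± 0.22, adjusted *P*=0.148). *Flt1*, whose product binds VEGFA and limits its action, averaged 1.10 ± 0.25 in the mutants and 1.52 ± 0.47 in the wild type (SD, *n*=3 for each). The difference (−0.42) was not called, with an adjusted *P* of 0.28. *Vegfa*, the ligand made mostly by cells other than endothelium, averaged 3.33 ± 0.17 and 3.10 ± 0.12 and was not called either (0.23, adjusted *P*=0.216).

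Of the 2 Tie receptor genes and *Angpt2*, *Tie1* was lower. *Tie1* (chr4:118471191-118490061) encodes a receptor kinase that pairs with TEK. It had log2 RPKM values of 1.66, 2.31 and 1.83 in *Pax9*-null replicates 1 to 3 and of 3.11, 2.61 and 2.29 in wild-type replicates 1 to 3. *Pax9*-null replicate 2 lay just above wild-type replicate 3, so that the groups overlapped. The fold change was −0.74 ± 0.25 on the log2 scale (adjusted *P*=0.0820), and *Tie1* was the only gene called lower whose groups overlapped. *Tek*, the angiopoietin receptor, had values of 3.69, 4.06 and 3.41 against 4.51, 3.78 and 3.0. Its highest and its lowest value were both in wild-type libraries, and its interval ran from −0.86 to 0.76 around a fold change of −0.05. *Angpt2*, an angiopoietin of remodelling vessels, averaged 0.81 ± 0.23 and 1.20 ± 0.19 (−0.39, adjusted *P*=0.176).

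Both genes of the ALK1 and endoglin receptor pair were lower, and in neither did the groups overlap. *Acvrl1* (chr15:101128522-101145336) had log2 RPKM values of 1.65, 1.77 and 1.51 in *Pax9*-null and of 2.29, 1.94 and 2.07 in wild-type replicates. The fold change of −0.46 ± 0.15 (adjusted *P*=0.0767) was the smallest among the genes called lower. *Eng* (chr2:32646595-32682669) had values of 1.60, 1.98 and 1.61 in *Pax9*-null and of 2.84, 2.40 and 2.09 in wild-type replicates. The gap between *Pax9*-null replicate 2 and wild-type replicate 3 was again narrow, at 183 and 216 reads. The fold change was −0.72 ± 0.21 (adjusted *P*=0.0641), or 60.9% of the wild-type level.

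**Figure D2:**
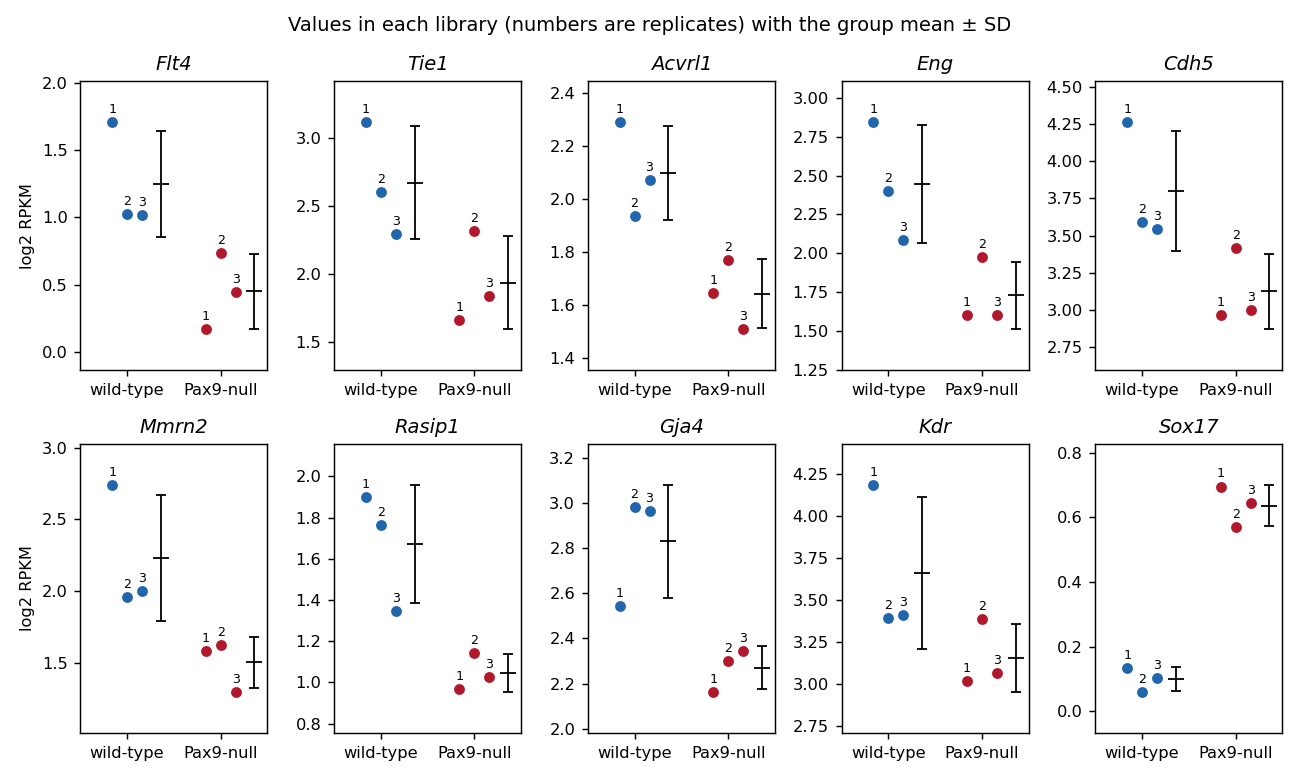
Log2 RPKM of the 8 genes called lower, of *Kdr* and of *Sox17* in each library, with replicate numbers beside the points and the mean ± SD of each genotype (*n*=3). Wild-type replicate 1 is the highest point in 8 of the panels, *Gja4* and *Sox17* being the exceptions, and the vertical axis differs between panels and does not start at 0.

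The 250 bases before the RefSeq start of each gene (GRCm38.p6) were searched on both strands for short words that ETS factors bind. The table of starts held 22 of the 40 genes with 27 distinct windows, among them 5 of the genes called lower (*Flt4*, *Tie1*, *Eng*, *Rasip1*, *Gja4*). The word AGGAAG was in 15 of the 27 windows (55.6%) and in 29.6% of all 32536 windows of the same length. A second ETS word, CGGAAG, was in 2 (7.41%) and in 13.7% of all. The Sox word AACAAT was in 4 windows (14.8%, against 9.35% of all). A GATA word, AGATAA, was in 2 (7.41%, against 9.97%). The first of these words was in 3 of the 5 windows of genes called lower, and also before genes that were not called, such as *Cd34*, *Egfl7*, *Emcn* and *Gja5*. Stretches of *Eng*, *Rasip1* and *Tie1* are shown because they hold ETS words, which stand in capitals as they read on the strand of the gene or, as CTTCCT, on the other strand. Each stretch ends at the last base before the gene as annotated in GENCODE M21.
*Eng*, chr2:32646475-32646594, plus strand: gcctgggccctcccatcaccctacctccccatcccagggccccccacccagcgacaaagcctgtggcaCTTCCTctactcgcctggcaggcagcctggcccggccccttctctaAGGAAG
*Rasip1*, chr7:45627368-45627487, plus strand: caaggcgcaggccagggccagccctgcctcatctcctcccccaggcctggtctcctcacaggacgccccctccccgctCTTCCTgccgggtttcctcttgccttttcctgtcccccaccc
*Tie1*, chr4:118490062-118490099, minus strand: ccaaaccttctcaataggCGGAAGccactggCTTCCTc
With positions counted back from −1, the base before the RefSeq start, the words begin at −52 and −6 in *Eng* and at −91 in *Rasip1*. *Tie1* carries both ETS words, beginning at −232 and −219. A match describes the letters and is not a measured site.

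Among 5 genes of endothelial junctions and adhesion, 1 was lower. *Cdh5* (chr8:104101625-104144511), which encodes VE-cadherin, the adhesion protein of these junctions, had log2 RPKM values of 2.96, 3.42 and 3.0 in *Pax9*-null and of 4.26, 3.59 and 3.55 in wild-type replicates. The groups did not overlap, and the fold change was −0.67 ± 0.21 (adjusted *P*=0.0735), or 62.7% of the wild-type level. *Pecam1*, a surface protein at the same junctions, had values of 2.66, 2.77 and 2.37 against 3.62, 2.84 and 2.71. *Pax9*-null replicate 2 lay above wild-type replicate 3, and the fold change of −0.46 was not called (adjusted *P*=0.208). The tight junction gene *Cldn5* (−0.34) and the adhesion genes *Esam* (−0.14) and *Icam2* (−0.03) were not called, with adjusted *P* values of 0.162, 0.434 and 0.897. The interval for *Icam2* ran from −0.36 to 0.30.

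Of 8 genes for surface and secreted endothelial proteins, *Mmrn2* was lower. *Mmrn2* (chr14:34375465-34404287) encodes a matrix protein that binds CLEC14A and CD93 on endothelial cells. It had log2 RPKM values of 1.58, 1.62 and 1.30 in *Pax9*-null and of 2.74, 1.96 and 2.0 in wild-type replicates. The groups did not overlap, with 113 to 139 reads in the mutants and 188 to 333 in the wild type, and the fold change was −0.73 ± 0.23 (adjusted *P*=0.0725). Its partners were not called, *Cd93* at −0.41 (adjusted *P*=0.253) and *Clec14a* at 0.05 (adjusted *P*=0.867). *Plvap*, which encodes the diaphragm protein of endothelial openings, was at −0.39 with an adjusted *P* of 0.131. The sialomucin genes *Emcn* (0.08, interval −0.29 to 0.45) and *Cd34* (−0.01, interval −0.31 to 0.29), the surface gene *Ecscr* (0.08) and the secreted factor *Egfl7* (0.21) were not called.

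Of 5 genes of endothelial signalling, *Rasip1* was lower. *Rasip1* (chr7:45627488-45639093) encodes a regulator of small GTPases that is needed for vessels to open a lumen. Its log2 RPKM was 0.97, 1.14 and 1.03 in *Pax9*-null replicates and 1.90, 1.77 and 1.35 in wild-type replicates. The groups did not overlap, the *Pax9*-null libraries lying close together, and the fold change was −0.62 ± 0.18 (adjusted *P*=0.0614). *Nos3*, the endothelial nitric oxide synthase, averaged 0.10 ± 0.21 in the mutants and 0.72 ± 0.35 in the wild type. Its fold change of −0.62 was as large as that of *Rasip1* and was not called (SE 0.23, adjusted *P*=0.108). *Ramp2*, a subunit of the adrenomedullin receptor, the peptide gene *Apln* and its receptor gene *Aplnr* had fold changes of 0.10, 0.08 and −0.15, none of them called.

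Among the 6 transcription factor genes of the SoxF, ETS and Tal families, *Sox17* (chr1:4490931-4497354), a SoxF factor of arterial endothelium that is also a factor of endoderm, was the single gene called higher. Its log2 RPKM was 0.70, 0.57 and 0.64 in *Pax9*-null and 0.14, 0.06 and 0.10 in wild-type replicates. Both groups were tight and well apart, with 81 to 89 reads in the mutants and 61 to 66 in the wild type, and the fold change was 0.54 ± 0.16 (adjusted *P*=0.0695). It was not called when any single library was left out, with fold changes between 0.51 and 0.57 and adjusted *P* values between 0.106 and 0.221. Of the 9 tested genes of endoderm and other epithelium listed beside it, none was called in this limma test and 2 (*Cdh1* and *Pax1*, both with fold changes below 0) had an unadjusted *P* under 0.05. The other SoxF genes, *Sox7* (−0.08, interval −0.88 to 0.72) and *Sox18* (−0.04, interval −0.57 to 0.49), were not called. *Erg*, the ETS factor kept up by mature endothelium, averaged 1.41 ± 0.37 and 1.96 ± 0.53 (−0.55, adjusted *P*=0.217), and *Fli1*, an ETS factor shared with blood and neural crest, averaged 4.88 ± 0.10 and 4.81 ± 0.14 (0.07, interval −0.16 to 0.30). *Tal2* lay higher in all *Pax9*-null libraries, at −0.68, −0.74 and −0.77 against −0.88, −1.24 and −2.13. It rested on 20 or 21 reads in the mutants and on 20, 15 and 8 in the wild type, and was not called (0.69, adjusted *P*=0.197).

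Of the 2 arterial connexin genes, *Gja4* (chr4:127311421-127314039), which encodes the gap junction protein connexin 37 of arterial endothelium, was lower. Its log2 RPKM was 2.16, 2.30 and 2.35 in *Pax9*-null replicates. It was 2.54, 2.98 and 2.97 in the wild-type replicates. The groups did not overlap, and unlike the other genes called lower *Gja4* was lowest, not highest, in wild-type replicate 1 among the wild-type libraries. The fold change of −0.56 ± 0.15 (adjusted *P*=0.0524) put the mutants at 67.8% of the wild-type level. *Gja5*, the gene of connexin 40, which is also made by atrial muscle, had a fold change of −0.06 (interval −0.62 to 0.50), and its lowest value was in wild-type replicate 3, the library with few cardiomyocyte reads.

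None of the 3 tested venous and lymphatic genes was called by limma, and 2 had an unadjusted *P* under 0.05 (*Stab1* and *Mmrn1*, in opposite directions). *Nr2f2*, the COUP-TFII gene of venous and mesenchymal cells, averaged 3.68 ± 0.31 in *Pax9*-null and 3.56 ± 0.02 in wild-type libraries (0.12, adjusted *P*=0.618). *Stab1*, a scavenger receptor gene of sinusoidal endothelium and macrophages, averaged 0.49 ± 0.40 and 1.18 ± 0.47 (−0.69, adjusted *P*=0.139). *Lyve1*, a hyaluronan receptor gene of lymphatic and early venous endothelium, had 7, 14 and 6 reads in the *Pax9*-null and 25, 16 and 2 in the wild-type libraries and was not tested.

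*Mmrn1*, the gene of multimerin 1 in platelets and endothelium, was present or absent by library and not by genotype. It had 209, 209 and 89 reads in *Pax9*-null replicates 1 to 3, 202 reads in wild-type replicate 1 and 0 reads in wild-type replicates 2 and 3, where a count of 0 allows up to 3 reads. Scaled to library size, wild-type replicate 1 was at least 65.5-fold higher than this limit in either of these libraries. *Mmrn1* lies at chr6:60924976-60989378. No fold change between genotypes is given for *Mmrn1*, which was not called in the main fit (adjusted *P*=0.109, limma). Without wild-type replicate 1 it was called higher by limma (adjusted *P*=0.00161), the wild-type libraries left being those with 0 reads.

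The endothelial genes varied more between the wild-type embryos than most genes did. Their median SD was 0.34 on the log2 scale over the wild-type libraries and 0.22 over the *Pax9*-null libraries, against 0.17 and 0.15 over all genes. Wild-type replicate 1 held the highest of the 6 values for 23 of the 38 genes (60.5%), and for 29.9% of all genes tested. Of the 8 genes called lower, 7 were highest there. Among the wild-type libraries, replicate 3 held the lowest value for 23 of the 38 genes (60.5%, against 28.1% of all genes). Relative to the wild-type mean, the median endothelial gene stood at 0.28, −0.02 and −0.24 in wild-type replicates 1, 2 and 3 and at −0.20, −0.15 and −0.39 in *Pax9*-null replicates 1, 2 and 3. By this median *Pax9*-null replicates 1 and 2 lay above wild-type replicate 3. The mean log2 RPKM of *Pecam1*, *Cdh5*, *Tie1* and *Esam* was 2.55, 2.83 and 2.49 in the mutants and 3.54, 3.0 and 2.85 in the wild type. By these 4 genes the groups were apart by a very small margin, and *Cdh5* and *Tie1* were themselves called lower. Listed markers outside this mean had fold changes of −0.51 (*Kdr*), −0.55 (*Erg*), −0.34 (*Cldn5*), −0.05 (*Tek*) and 0.08 (*Emcn*), none of them called. Among those markers only *Kdr* did not overlap between genotypes. The margin thus holds for the genes averaged and not for endothelial markers at large.

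**Figure D3:**
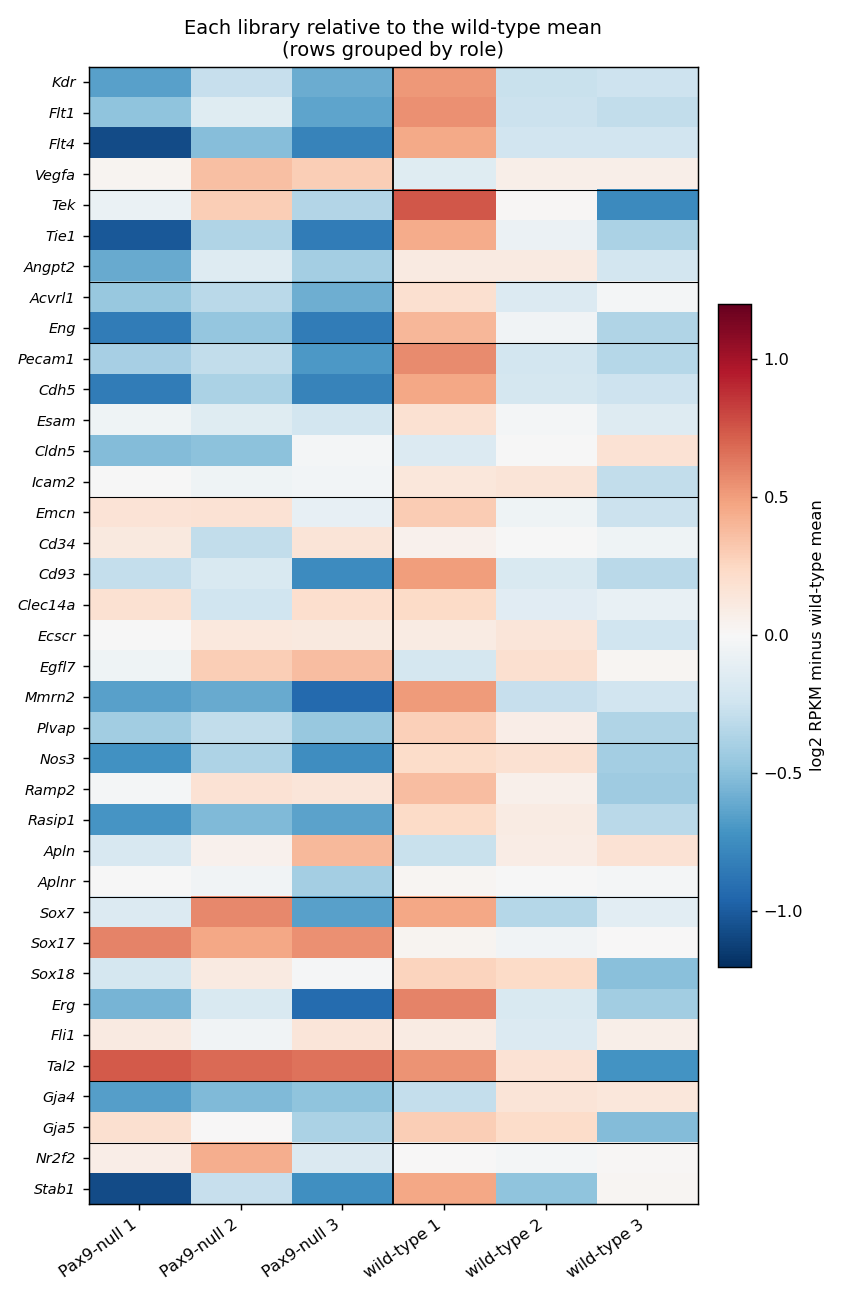
Log2 RPKM of each of 37 endothelial genes in each library minus the wild-type mean of that gene, with the colour running from −1.2 (blue) to 1.2 (red) and rows grouped by role. Wild-type replicate 1 is red for most genes, wild-type replicate 3 is mostly pale blue, and the *Pax9*-null columns range from blue for *Flt4* and *Tie1* to red for *Sox17* and *Tal2*.

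How many genes stayed called depended on which library was left out. With any library left out, all 8 lower genes kept a fold change below 0. For 7 of them the groups did not overlap, so that leaving out a library could not turn the direction. Without wild-type replicate 1 the median fold change of these 8 went from −0.70 to −0.51, and only *Gja4* stayed called (−0.70, adjusted *P*=0.0250). The share of all genes called lower was then 5.15%. By limma, 12 of the 38 endothelial genes had an unadjusted *P* under 0.05 in either direction, against 13 with all 6 libraries. The part that the low neural tube sum of this library plays was not tested. Without *Pax9*-null replicate 1 or 3 none was called, and the share of all genes called lower went from 12.0% to 0.295% and 0.162%. The median fold change of the 8 lower genes was −0.60 and −0.62 in these fits. At an unadjusted *P* under 0.05 by limma, in either direction, there were then 7 and 6 of the 38. The share of all genes at that level was not counted in the fits with a library left out. Without *Pax9*-null replicate 2 it was 7 of the 8 that stayed, all but *Mmrn2*, and 10.2% of all genes were called lower. Without wild-type replicate 3, the library low in cardiomyocyte genes, 6 of the 8 stayed (*Acvrl1* and *Gja4* did not) and *Nos3* and *Plvap* were added. In that fit 6.64% of all genes were called lower. Without wild-type replicate 2 it was also 6 of the 8 that stayed, *Tie1* and *Rasip1* being lost and *Stab1* added, and 11.6% of all genes were called lower.

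Fold changes varied with base composition in these libraries. Fold change and GC content had a Spearman's rho of −0.47 over the 38 endothelial genes and −0.44 over all genes, and the rho with gene length was −0.14 and −0.40. These correlations are across genes, which share libraries and are not independent. The 8 genes called lower had a median GC content of 57.0%, and the other 30 one of 50.8%. After removal of each library's trends with length and GC content, *Gja4* (−0.58) stayed called lower and *Sox17* higher, and the fold changes of the 8 lower genes lay between −0.58 and −0.15. The share of all genes called lower was then 2.09%.

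Each library was instead centred on the mean of *Pecam1*, *Cdh5*, *Tie1* and *Esam*, to read the other genes relative to these markers. *Cdh5* (−0.67) and *Tie1* (−0.74) were themselves called lower in the main fit, so that this centring raised the fold changes of the other genes. Fewer lower and more higher calls were thus built in, and the fit cannot decide whether a gene changed relative to the endothelium. No endothelial gene was then called lower by limma and 7 were called higher. Of the 38, 9 had an unadjusted *P* under 0.05 in either direction. Only 0.0664% of all genes were called lower in that fit. The median of all genes moved to 0.50 under this centring, and that of the 38 endothelial genes to 0.36. *Flt4* was then at −0.29, *Mmrn2* at −0.23, *Eng* at −0.21, *Rasip1* at −0.12, *Gja4* at −0.06 and *Acvrl1*, turned in direction, at 0.05. The 7 called higher were *Sox17* (1.04), *Tal2*, *Vegfa* (0.73), *Egfl7* (0.71), *Ramp2* (0.60), *Emcn* (0.58) and *Mmrn1*, and 27.4% of all genes were called higher.

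**Figure D4:**
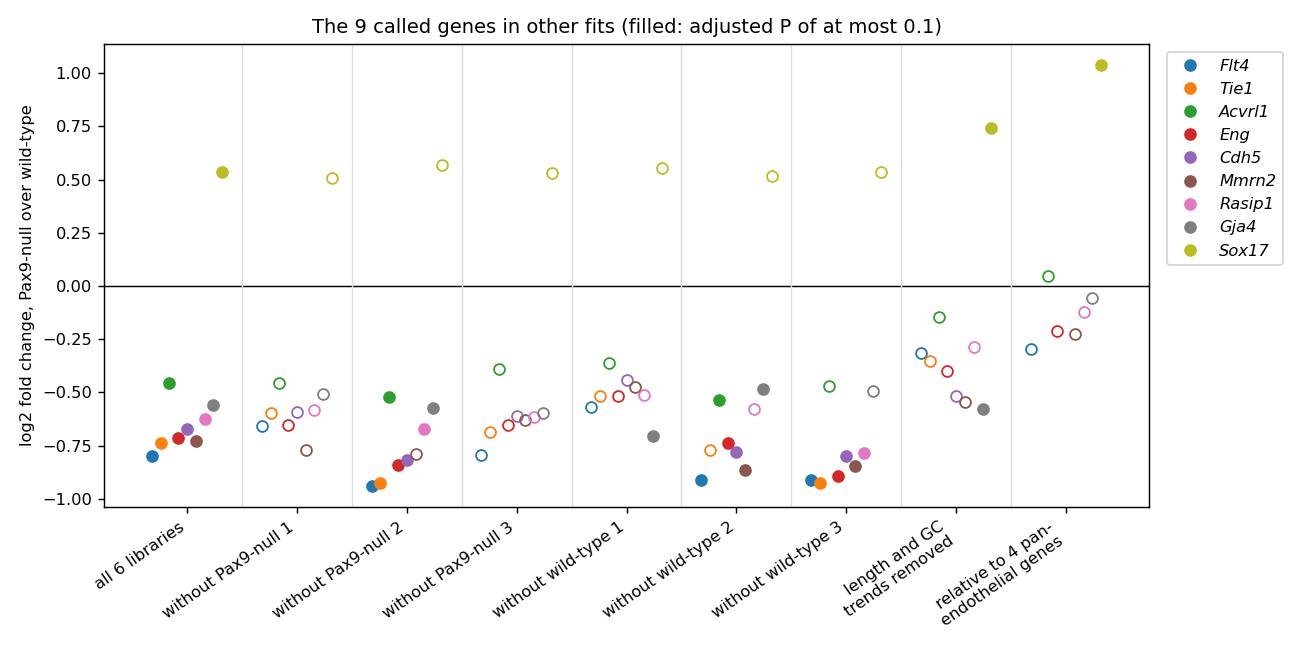
Log2 fold change of the 9 called genes with all 6 libraries, with each library left out in turn, after removal of length and GC trends, and relative to 4 pan-endothelial genes; filled circles passed the threshold of 0.1 on the adjusted *P*. Without *Pax9*-null replicate 1 or 3 all circles are open, without wild-type replicate 1 only *Gja4* is filled, and in the column relative to pan-endothelial genes, from which *Tie1* and *Cdh5* are absent, only *Sox17* is filled.

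Other genes of the same pathways were taken from lists written by role. Of 20 tested partners of the VEGF, angiopoietin and apelin systems, 2 were lower and 1 was higher, fewer than the 12.0% and 14.7% of all genes would give, with a median fold change of −0.07. The lower genes were *Plcg1* (−0.69, adjusted *P*=0.0343), the phospholipase that acts below KDR, and *Nrp2* (−0.60, adjusted *P*=0.0729), the co-receptor of FLT4. The higher gene was *Apela* (0.69, adjusted *P*=0.0430), which encodes the second ligand of the apelin receptor. The ligand genes *Vegfc* (0.04), *Vegfb* (−0.20), *Pgf* (−0.09) and *Angpt1* (0.31) were not called. *Bmp10*, a ligand of ALK1 that is made by heart muscle, was at −5.21 in wild-type replicate 3 and between 1.19 and 2.62 in the other libraries; the cardiomyocyte genes were low in the same library.

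Of 14 Notch and Eph genes of arterial and venous identity, 3 were lower and none was higher by limma at this threshold, and at an unadjusted *P* under 0.05 there were 5 lower and 0 higher. The receptor genes *Notch1* (−0.81, adjusted *P*=0.0587) and *Notch4* (−0.55, adjusted *P*=0.0911) and the venous receptor gene *Ephb4* (−0.42, adjusted *P*=0.0625) were called. The arterial ligand genes *Dll4* (−0.42, adjusted *P*=0.137) and *Efnb2* (−0.27, adjusted *P*=0.169) were not. The fold change was above 0 for 4 of the 14, *Hey2* (0.55), *Bmx* (0.46), *Hey1* (0.13) and *Cxcr4* (0.03), none of them called. For *Hey2* all *Pax9*-null libraries lay above all wild-type ones. The median of the 14 was −0.34, and libraries did not overlap, with *Pax9*-null below, for 6 of them. Of all genes tested 12.0% were called lower and 14.7% higher, and 20.1% had *Pax9*-null libraries below without overlap. At an unadjusted *P* under 0.05 by limma, 16.4% of all genes were lower and 18.7% higher. Unlike the endothelial genes above, only 4 of the 14 were highest in wild-type replicate 1, and *Notch1* and *Notch4* were highest in wild-type replicate 3.

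Of 24 other tested endothelial genes, 3 were lower and 1 was higher, with 18 fold changes below 0 and a median of −0.30. Beside 12.0% of all genes called lower, 3 of 24 is close to the background. The lower genes were *Plxnd1* (−1.11, adjusted *P*=0.0482), a semaphorin receptor gene, *Robo4* (−0.86, adjusted *P*=0.0533), a guidance receptor gene of endothelium, and the secreted protein gene *Sparcl1* (−0.62, adjusted *P*=0.0256). Again 17 of the 24 were highest in wild-type replicate 1. The higher gene was *Tal1* (0.63, adjusted *P*=0.0996), a factor shared by endothelium and red cell precursors. *Tal1* stood at 2.85, 2.13 and 3.01 in *Pax9*-null replicates 1, 2 and 3, highest in the replicates whose erythroid sums were also the highest. Of 7 tested genes listed for pericytes and smooth muscle, *Pdgfrb* (−0.83), *Notch3* (−0.77) and *Mylk* (−0.77) were lower by limma, with adjusted *P* values between 0.0414 and 0.0482. The other 4, *Acta2* (0.62), *Cnn1* (0.50), *Tagln* (0.40) and *Rgs5* (−0.30), were not called. Bulk RNA does not give the cells that held these transcripts. The sum of the list was lowest in wild-type replicate 3, as given above. *Acta2* had its lowest log2 RPKM there (5.59), whereas *Notch3* had its highest (3.06).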

How the data were processed

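The authors trimmed reads with Trimmomatic 0.32, removed redundant reads, sub-sampled libraries towards the smallest, aligned with STAR to GRCm38 and counted with featureCounts 1.5.1. The submitters' processing notes give STAR 2.5.1a, and the study's methods another STAR release. The deposited values are log2 RPKM, 1 value per gene and embryo. Their steps gave back whole reads for 82.6% of values at GENCODE M21 gene lengths (tolerance 0.05 reads) and, after a search of lengths for 2826 genes, for 14646 of 14647 genes. Values were tested as deposited with limma 3.58.1 in R 4.3.3 (variance trend on the mean, two-sided, Benjamini-Hochberg over 13547 genes, called at an adjusted *P* of at most 0.1), after a test on simulated data. An exact permutation test of 3 against 3 embryos cannot give a *P* under 0.1. The embryos are separate animals, and no source gives a batch or litter. Intervals and read limits cover these libraries and counting error only. The genes, lists and tests were chosen with earlier results of these data known. Named with values in each library were the called genes, those whose groups did not overlap and *Pecam1*, *Cdh5*, *Kdr*, *Tek* and *Tie1*. Called genes of the pathway lists are named with fold changes; *Mmrn1* and other uncalled list genes were chosen once their values were known. Alternatives covered pseudocounts of 0.1 and 1 RPKM, filters, scalings, the variance trend, the replicate block, each library left out, a threshold of 0.05 and length and GC trends. Promoter sequences are from RefSeq (GRCm38.p6).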

Additional observations from a re-analysis of the deposited data

How the results depend on the processing

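The count of 8 lower genes and 1 higher gene was the same with pseudocounts of 0.1 or 1 RPKM, no filter, a filter of 1 RPKM, median centring and quantile normalization, and without the variance trend it was 6 lower and 1 higher. Of all genes, between 10.1% and 13.1% were called lower in these fits and between 10.6% and 16.4% higher. Genes called lower numbered 0 relative to 4 pan-endothelial genes, 3 with the replicate block, 0 at a threshold of 0.05, 1 after removal of length and GC trends and 0 to 8 with each library left out. In the same order, the shares of all genes called lower were 0.0664%, 3.65%, 3.71%, 2.09% and, with a library left out, between 0.162% and 11.6%. Genes called higher numbered 7 relative to pan-endothelial genes, 0 at a threshold of 0.05 and 0 to 1 with each library left out. The 1 was *Mmrn1*, in the fit without wild-type replicate 1. In the same order, the shares of all genes called higher were 27.4%, 6.15% and between 1.13% and 14.8%. *Acvrl1* turned to 0.046 relative to pan-endothelial genes, a centring that moved the median of all genes to 0.50. That reference holds *Cdh5* and *Tie1*, which were themselves called lower. For the other changes the cause was not tested. Each tested gene was set against its main fit in each alternative, 641 comparisons in all. Of these, 566 kept their side of the threshold, 63 lost the call with the sign kept and 11 passed the threshold. The remaining 1, *Acvrl1* relative to pan-endothelial genes, lost the call with the sign turned. The sign was the other one in 45, 44 of them of genes that were not called and 1 of *Acvrl1*. The filters, the variance trend, the replicate block and the threshold of 0.05 leave a fold change as it is, so that no sign could turn in them. Same-numbered embryos of the 2 genotypes had correlations of their deviations of −0.02, −0.17 and 0.26. These values cannot decide whether embryos were paired, and no source says that the numbers pair them. With the replicate block *Eng*, *Gja4* and *Mmrn2* stayed lower, *Sox17* was not called and *Mmrn1* was. With 3 embryos a genotype, the adjusted *P* values of the 9 called genes ran from 0.0524 to 0.0820.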
